A study of Mus musculus with 1037 samples.

Results

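Transcripts of 8 transcription factors of the epidermal lineage, Trp63, Klf4, Klf5, Grhl1, Grhl3, Gata3, Ovol1 and Zfp750, were followed in single epithelial cells of the mouse hair follicle. They are 8 of the 55335 gene identifiers in the count table, matched by Ensembl identifier, and each identifier was found. The cells were sorted from the skin of wild-type mice, and their full-length cDNA was sequenced by the Smart-seq2 protocol, which gives 1 library per cell and carries no molecular identifiers. The study asked how hair follicle stem cells clear dying neighbours as the follicle passes from growth (anagen) into regression (catagen). At full anagen (AnaVI), the LOS sort held the lower outer root sheath, and the MOS and UOS sorts held the upper-middle outer root sheath. The outer root sheath (ORS) is the epithelial sleeve around the growing hair, and its upper end holds the stem cell niche called the bulge. At CatVI, cells of the upper ORS filled 6 plates whose titles give postnatal day 17, and at CatVII the upper ORS was sorted as OSalive and OSapop. The labels give no age for the other sorts.

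By the study's methods, Sca1-positive and lineage-positive cells (CD31, CD117, CD140a or CD45) were gated out and CD34-positive, integrin alpha6-positive cells were kept. Annexin V and DAPI set the alive and apoptotic gates, and lower and upper epithelium were parted mechanically. Among the CatVI plates, plates 1 and 2 are labelled PhagoHFSC alive, plates 3 and 4 NonPhagoHFSC alive, plate 5 PhagoHFSC apop and plate 6 NonPhagoHFSC apop, where HFSC stands for hair follicle stem cell. Cells of 3 to 6 mice were pooled before each sort and no animal is named. Each sort or plate is therefore 1 sample, no error between animals can be given, no test between groups was made, and stage, sort and library cannot be told apart.

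Of 1035 cells of known group with counts, 463 had at least 2000 detected genes and were kept, namely 39 of 93 in LOS, 38 of 72 in MOS, 19 of 88 on plate 1, 9 of 73 on plate 2, 15 of 85 on plate 5, 14 of 69 on plate 6, and 92 in OSapop (65.2% of that sort). UOS and OSalive gave the rest, with 83.6% and 80.1% of their cells kept. Plates 3 and 4 left no cell, so 9 sorts and plates are described. Their summed counts ran from 1840012 on plate 6 to 287377663 in OSalive. A single identifier took 65.5% of all counts, and identifiers in the annotation took 19.3% to 28.7% of a group's counts, lowest in OSalive. Krt5, the keratin of basal keratinocytes, was present in every group, at 459 to 2133 CPM, where CPM is a gene's counts scaled to 1000000 counts of its group. RNA of the stem cell marker Cd34, which the gate used as protein, lay at 1.46 to 9.71 CPM on the CatVI plates and at 21.5 to 111.1 CPM in the other sorts. Fibroblast genes summed to 1460 CPM in LOS, 390 in UOS, 240 in OSalive, 227.1 in OSapop and at most 46.4 elsewhere, and melanocyte genes to 183.3 CPM in LOS, 218.1 on plate 2 and at most 13.7 elsewhere. Immune genes summed to at most 33.1 CPM and endothelial genes to at most 76.1 CPM, both highest in LOS. Their part in the results below was not tested beyond leaving such cells out.

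These factors act at successive steps of stratified epithelia. p63, the product of Trp63, sets and maintains epithelial identity in basal cells. Klf4 and Klf5 are zinc finger factors of one family: Klf5 is known from proliferating basal cells and Klf4 from the forming skin barrier. Grhl1 and Grhl3, grainyhead-like factors, act on desmosomal cadherin and barrier genes. Gata3 is needed for the inner root sheath, the rigid layer that moulds the hair. Ovol1 restrains proliferation as cells differentiate, and Zfp750 promotes terminal differentiation downstream of p63.

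The genes lie on separate chromosomes apart from Klf4 and Grhl3. In GRCm39, Trp63 spans bases 25502513 to 25710852 of chromosome 16 on the plus strand. Klf4 spans 55527139 to 55532528 and Grhl3 135268329 to 135300992 of chromosome 4, both on the minus strand. Klf5 spans 99536086 to 99552473 of chromosome 14 and Grhl1 24622197 to 24669816 of chromosome 12, both on the plus strand. Gata3 (chromosome 2, 9861889 to 9894845), Ovol1 (chromosome 19, 5599164 to 5610674) and Zfp750 (chromosome 11, 121401804 to 121410620) are on the minus strand. Reads were summed per gene, so transcripts of Trp63 from its alternative starts cannot be told apart.

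Promoters of 4 members were found among 32851 windows from RefSeq on GRCm38.p6, an earlier build than that of the coordinates above. Windows of 200 bases before the start are shown for 3 genes with unlike patterns across the sorts: Klf4, high at CatVII, Grhl1, high at CatVI, and Grhl3, the rarest. They lie at chr4:55532476-55532675 on the minus strand, chr12:24572087-24572286 on the plus strand and chr4:135573633-135573832 on the minus strand. Capitals mark each match to a searched motif on either strand, which were a GC box (GGGCGG, or CCGCCC on the other strand), a CCAAT box (CCAAT, or ATTGG) and an E box (CACCTG).
Klf4: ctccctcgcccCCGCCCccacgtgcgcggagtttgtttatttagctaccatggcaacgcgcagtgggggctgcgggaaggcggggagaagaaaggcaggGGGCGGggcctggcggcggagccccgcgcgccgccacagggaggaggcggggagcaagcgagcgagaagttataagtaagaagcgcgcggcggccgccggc
Grhl1: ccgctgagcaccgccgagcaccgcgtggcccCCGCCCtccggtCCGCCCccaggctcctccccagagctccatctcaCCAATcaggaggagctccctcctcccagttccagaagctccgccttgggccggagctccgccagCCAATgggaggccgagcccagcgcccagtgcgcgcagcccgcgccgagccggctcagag
Grhl3: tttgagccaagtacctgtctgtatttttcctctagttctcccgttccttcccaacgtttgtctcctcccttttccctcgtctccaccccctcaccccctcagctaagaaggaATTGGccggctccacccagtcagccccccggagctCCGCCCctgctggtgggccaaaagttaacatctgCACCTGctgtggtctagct
The GC box occurred in all 3 and in 31% of all windows. The CCAAT box, held by 29.3% of windows, occurred in those of Grhl1 and Grhl3, and the E box, held by 13.9%, occurred at -19 from the start in that of Grhl3. No match was found in them to a grainyhead motif (AACCGGTT, 0.0822% of windows), a CACCC box (CCACACCC, 2.72%), a GATA motif (AGATAA, 7.8%), an OVO motif (CCGTTA, 1.73%), an AP-1 motif (TGACTCA, 3.66%) or a TATA box (TATAAA, 9.96%). The Gata3 window had 2 GC boxes, and a second start of Grhl1 had none of these letters. The motifs overlap none of one another in these windows.

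Trp63 was the most evenly spread member. Its level was 135.7 CPM in LOS, 235.9 in MOS, 189.8 in UOS, 192.7 on plate 1, 79.04 on plate 2, 220.5 on plate 5, 220.1 on plate 6, 178.4 in OSalive and 223.8 in OSapop. Neighbours in this order from MOS down to UOS overlapped within their counting limits, which are exact 95% Poisson limits here and, with PCR copies of 1 molecule counted apart, cover counting error only, and OSalive, LOS and plate 2 followed as separate steps. It had a count in 454 of the 463 cells. Per kilobase of canonical transcript, the scale on which genes can be compared, Trp63 stood at 28.8 to 50.2 CPM outside plate 2 (16.8), above every other member in each group. Its low value on plate 2 rests on 9 cells, of which 7 had a count.

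Klf4 and Klf5 were both highest at CatVII. Klf4 was at 8.21 CPM in LOS, 6.67 in MOS, 24.1 in UOS, 8.21 on plate 1, 11.04 on plate 2, 18.5 on plate 5, 16.8 on plate 6, 66.9 in OSalive and 38.1 in OSapop. OSalive, OSapop and UOS each stood apart from the next group down beyond counting limits, while every pair of neighbours from plate 5 downward overlapped. Klf5 was at 7.56 CPM in LOS, 6.91 in MOS, 9.66 in UOS, 11.3 on plate 1, 10.2 on plate 2, 15.1 on plate 5, 16.3 on plate 6, 28.4 in OSalive and 24.01 in OSapop. Its range was narrower, and OSalive (27.7 to 28.98) alone stood apart from its nearest neighbour. Since Smart-seq2 depth differed, each cell was also thinned to 50000 counts, which left out as too shallow 16 cells of LOS, 7 of OSapop, 6 of MOS and at most 2 of any other group. On that scale Klf4 was found in 70.2% of OSalive cells, 64.7% of OSapop cells, 40.5% of UOS cells and 6 of 32 MOS cells (18.8%). Klf5 was found in 45.2% of OSalive and 45.9% of OSapop cells against 18.9% of UOS cells. At that depth the share of cells with a count was higher in both CatVII sorts than in UOS, as the CPM was. For Klf5 the share in OSapop was not below that in OSalive, unlike the CPM. Thinned to 20000 counts, Klf4 was found in 53.6% of OSalive cells, but in 27.5% of OSapop and 28.6% of UOS cells. Klf5 was then found in 31.2% of OSalive, 27.5% of OSapop and 11.6% of UOS cells.

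Gata3 was alike in UOS and both CatVII sorts and varied among the plates. Its level was 52.8 CPM in LOS, 21.5 in MOS, 38.6 in UOS, 80.4 on plate 1, 22.5 on plate 2, 27.4 on plate 5, 50 on plate 6, 38.8 in OSalive and 38.5 in OSapop. UOS and both CatVII sorts overlapped in counting limits, and the highest and a low value came from the plates of the same label, plates 1 and 2. On plate 1 a single cell gave 46.9% of the Gata3 counts. Thinned to 50000 counts, Gata3 was found in every group in a share between that of MOS, 16 of 32 cells, and that of plate 2, 6 of 8 cells.

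The other members, Grhl1, Grhl3, Ovol1 and Zfp750, were low or absent in most cells, and their order over the groups differed. Grhl1 was at 30.9 CPM in LOS, 4.56 in MOS, 13.4 in UOS, 52.1 on plate 1, 22.96 on plate 2, 49.4 on plate 5, 28.8 on plate 6, 9.56 in OSalive and 13.1 in OSapop. Zfp750 was at 26.9 CPM in LOS, 0.936 in MOS, 14.2 in UOS, 29.4 on plate 1, 10.2 on plate 2, 62.1 on plate 5, 53.8 on plate 6, 2.66 in OSalive and 0.931 in OSapop. Both were highest on CatVI plates and lower in MOS and the CatVII sorts than on any CatVI plate, and the limits of plates 5 and 6 for Zfp750 (at least 43.7 at the lower end) lay above those of every other group. Ovol1 was at 14.7 CPM in LOS, 1.05 in MOS, 8.40 in UOS, 9.66 on plate 1, 18.55 on plate 2, 6.90 on plate 5, 10.9 on plate 6, 0.814 in OSalive and 2.90 in OSapop. The 6 groups from plate 2 down to plate 5 overlapped as neighbours, and OSapop, MOS and OSalive lay below them.

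Grhl3 was the scarcest member, with a count in 29 of 463 cells. Its level was 5.51 CPM in LOS, 3.99 in UOS, 1.82 on plate 1, 2.65 on plate 2, 3.11 on plate 5, 0.543 on plate 6, 0.407 in OSalive and 1.66 in OSapop. MOS had no count, which allows up to 0.351 CPM by the bound used for folds (3 counts of its total) and 0.432 CPM by the exact Poisson limit that the plots show. Neighbours in order of level overlapped throughout, but groups further apart did not all overlap. The limits were 3.53 to 4.50 CPM in UOS, 1.37 to 1.98 in OSapop and 0.337 to 0.488 in OSalive. On plates 2, 5 and 6 all Grhl3 counts came from 1 cell each.

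**Figure D1:**
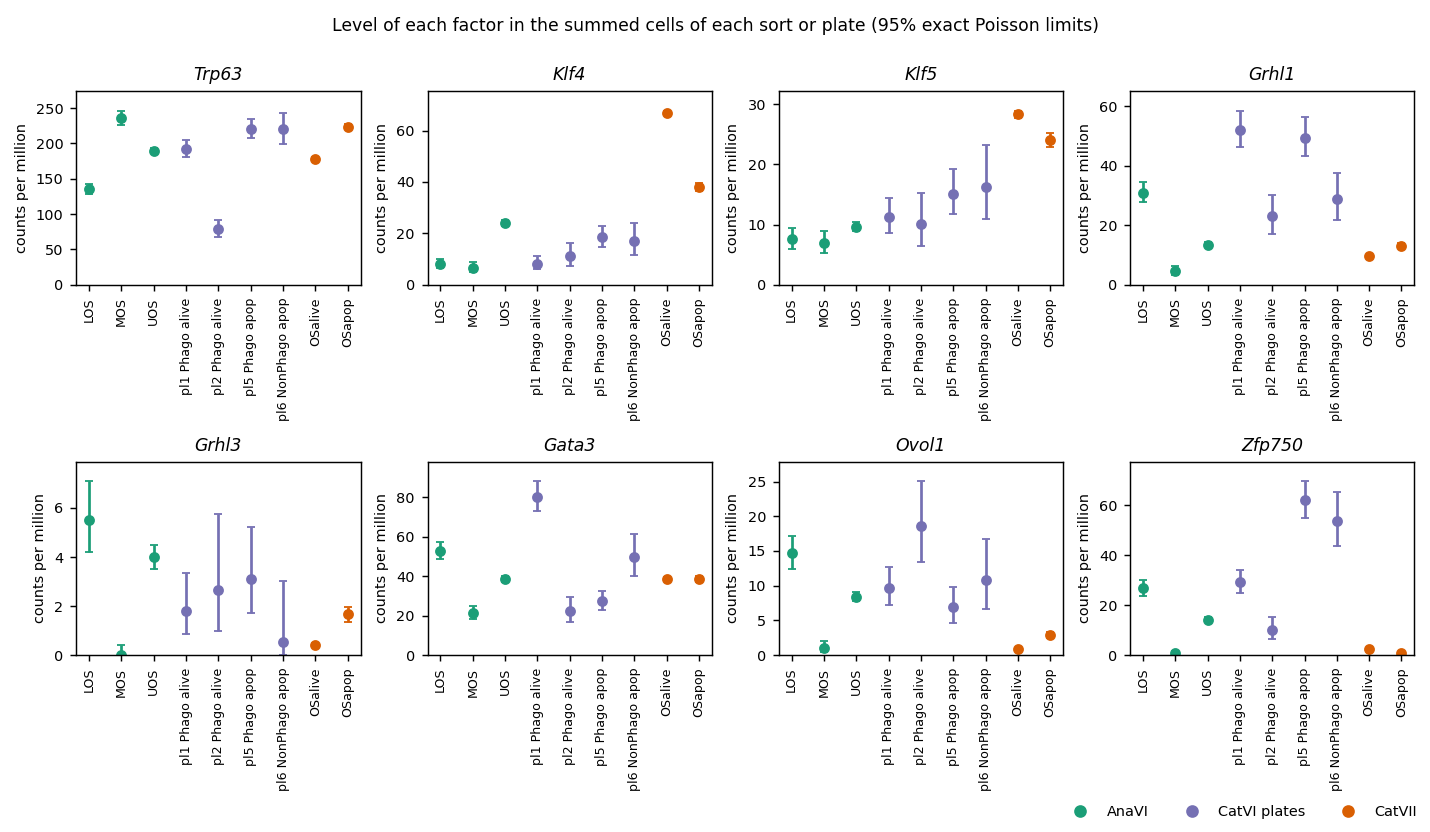
Level of each of the 8 factors in the 9 sorts and plates, in CPM on linear axes that start at 0 and differ between panels; points are summed counts over all passing cells and bars are exact 95% Poisson limits, which cover counting error only. Klf4 and Klf5 peak in OSalive (66.9 and 28.4 CPM), Zfp750 on plate 5 (62.1 CPM), and Trp63 stays between 79.04 and 235.9 CPM.

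The only described groups that share all labels are plates 1 and 2, and they give the one view of how far like-labelled plates lay apart. The fold between them was 3.57 for Gata3, 2.89 for Zfp750, 2.44 for Trp63 and 2.27 for Grhl1, all higher on plate 1. It was 1.92 for Ovol1, 1.45 for Grhl3 and 1.35 for Klf4, all higher on plate 2, and 1.11 for Klf5. Over 3791 features with at least 100 counts on the 2 plates, 45.3% lay at least 2-fold apart and the median fold either way was 1.85. Folds of this size between other groups are therefore within what 2 plates of 1 label showed, with 19 and 9 cells.

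**Figure D2:**
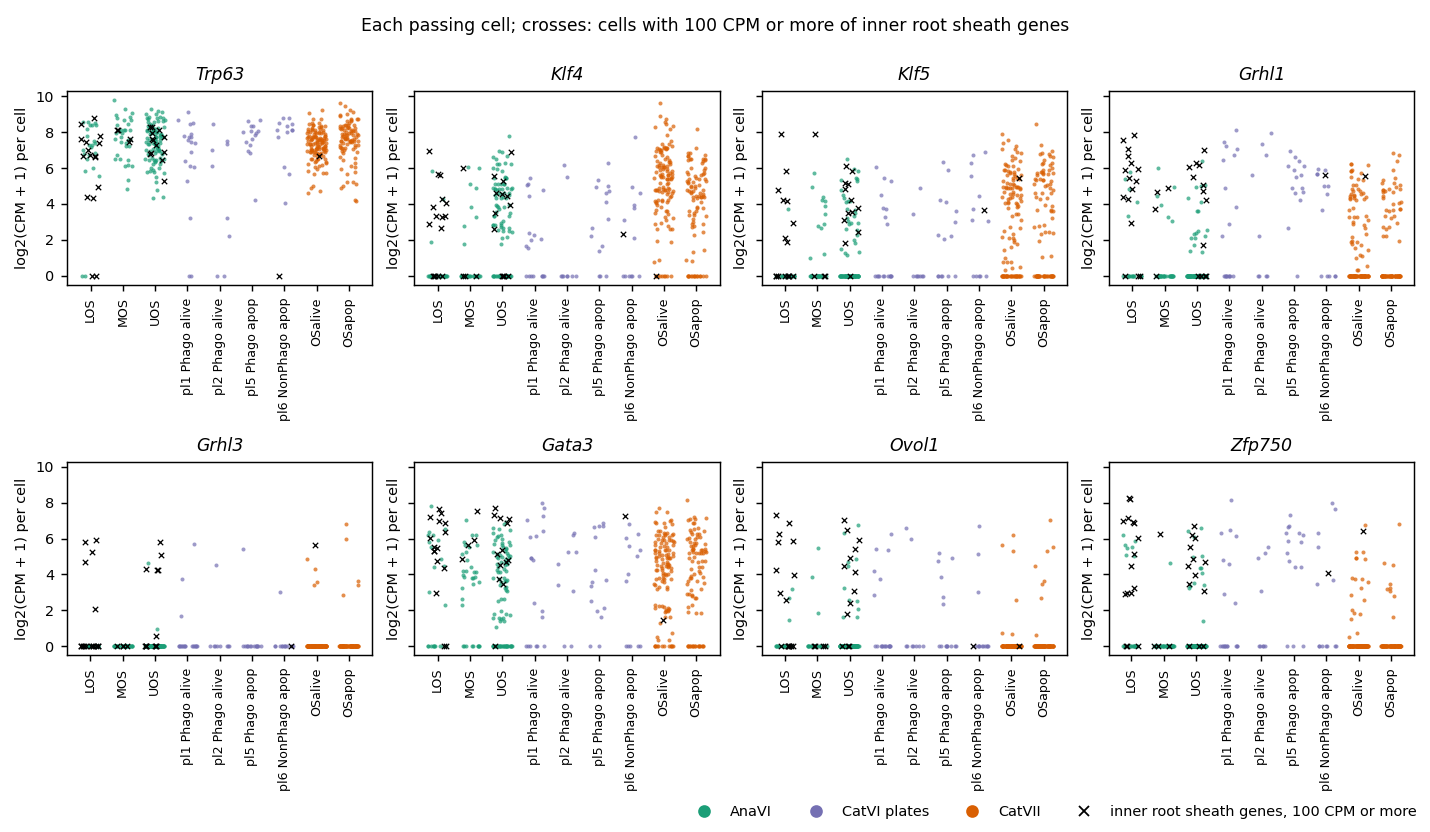
Level of each factor in every passing cell, as log2(CPM + 1) of that cell's own counts, by sort or plate; crosses are cells with at least 100 CPM of 7 inner root sheath genes. In UOS and in LOS the highest cell for each of Grhl1, Grhl3, Ovol1 and Zfp750 is a cross, while the CatVI plates hold 1 cross in all.

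Cells with 2 or more of the 4 scarce factors were more frequent on the CatVI plates and in LOS than elsewhere. Of cells thinned to 50000 counts, at least 2 of Grhl1, Grhl3, Ovol1 and Zfp750 were found in 13 of 15 on plate 5 (86.7%), 5 of 12 on plate 6 (41.7%), 5 of 18 on plate 1 (27.8%), 2 of 8 on plate 2 and 8 of 23 in LOS (34.8%). In the other sorts this held for 7.21% of cells of UOS, 6.45% of OSalive, 2 of 32 of MOS (6.25%) and 2 of 85 of OSapop (2.35%). Without thinning the shares were 86.7% on plate 5, 42.1% on plate 1, 44.4% on plate 2 and 38.5% in LOS, 7 of 14 on plate 6, and 12.5% in UOS, 13.6% in OSalive, 7.89% in MOS and 11 of 92 in OSapop. Plate 5 was carried by a single pair: thinned, Grhl1 was found in 13 of its 15 cells and Zfp750 in 11, with Ovol1 in 4 and Grhl3 in 1. In UOS, Ovol1 and Zfp750 were found together in 7 cells, where 1.52 would be counted if each were spread evenly over cells, and Grhl1 and Zfp750 in 6, against 1.52. In LOS the same pairs were near that value, with 3 cells against 2.43 and 3 against 2.78, in OSapop neither pair was found, and in OSalive they were found in 1 cell against 0.290 and in 7 against 3.10. Depth per cell and cell type are shared by such pairs, so these counts are a description.

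**Figure D3:**
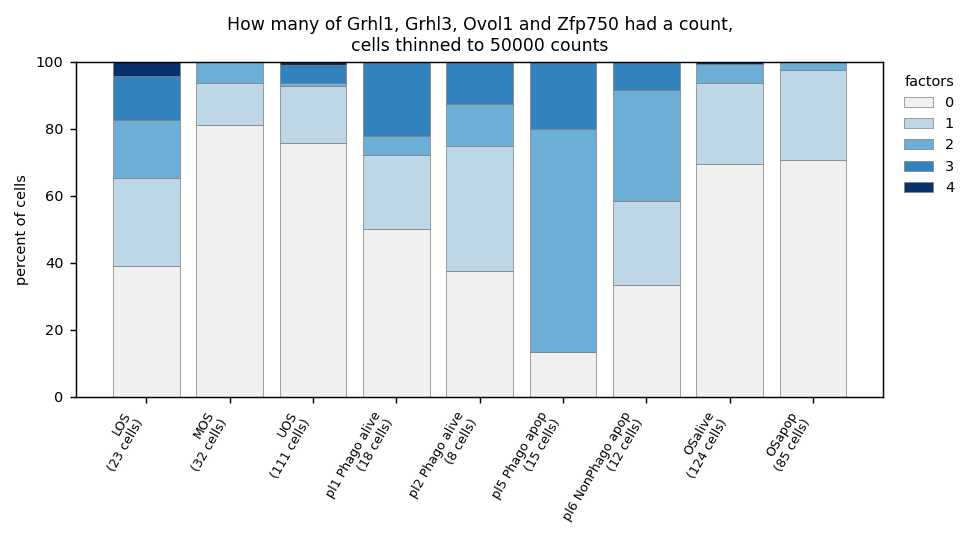
Stacked bars of the percent of cells in which 0 to 4 of Grhl1, Grhl3, Ovol1 and Zfp750 had a count after thinning each cell to 50000 counts, by sort or plate. For at least 2 factors plate 5 stands at 86.7%, and MOS, UOS, OSalive and OSapop lie between 2.35% and 7.21%.

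In UOS and LOS most counts of the scarce factors came from cells that also held inner root sheath RNA, though many other cells held some. The split, chosen after the data had been seen, put aside cells with at least 100 CPM summed over Krt71, Krt72, Krt73, Krt25, Krt27, Krt28 and Tchh, which are structural genes of that layer. It took 13 UOS cells (11.6%), 16 of 39 LOS cells, 4 of 38 MOS cells, 1 each of plate 6 and OSalive, and none elsewhere. Between 50 and 200 CPM, near the limit, lay 7 UOS, 10 LOS, 3 MOS and 4 OSalive cells. Cells under the limit are called cells without these genes below, though some held lower amounts. In all, 35 of the UOS and 29 of the LOS cells had a count of them. In UOS these 13 cells gave 19.4% of all counts but 97.1% of those of Grhl3, 88.2% of Grhl1, 77.9% of Ovol1, 66.9% of Zfp750, 59.7% of Klf5 and 54.7% of Gata3. Their shares of Klf4 (28.2%) and Trp63 (15.7%) lay nearer to their share of counts. A few cells carried these sums, since 1 UOS cell gave 43.6% of the Grhl1 counts and 1 cell 41.4% of those of Grhl3. The 13 cells were also deeper, with a median of 889189 counts against 470402 in the other 99.

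Counted by cell and without thinning, most UOS cells with Grhl1, Ovol1 or Zfp750 were under the limit for inner root sheath genes. Some of these cells still held lower amounts of those genes, up to 97.5 CPM in a cell with Ovol1 and 59.7 CPM in a cell with Zfp750. Grhl1 had a count in 9 of the 13 cells and 18 of the 99, Ovol1 in 10 and 11, Zfp750 in 10 and 13, and Grhl3 in 6 and 2. Thinned to 50000 counts, Grhl1 was found in 6 of 13 and 7 of 98, Ovol1 in 6 and 7, Zfp750 in 7 and 6, and Grhl3 in 2 and 2. The share of cells was therefore higher among the 13 at like depth, while the numbers of cells were about even.

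The levels in the UOS cells with and without inner root sheath genes were 60.8 and 1.96 CPM for Grhl1, 19.97 and 0.145 for Grhl3, 33.7 and 2.31 for Ovol1 and 48.8 and 5.83 for Zfp750. For Gata3 they were 108.6 and 21.7 CPM, for Klf5 29.7 and 4.83, for Klf4 34.97 and 21.4 and for Trp63 153.5 and 198.5. The median of the 13 cells was lower than these sums for Grhl1 (24.98 CPM) and Gata3 (34.7). Thus 6 of 8 members were at least 2-fold higher in the 13 cells and none was 2-fold lower, where 22.2% of 10877 features were 2-fold higher and 15.3% lower. Krt5 (520 against 1471 CPM), the bulge keratin Krt15 (316 against 1161) and Cd34 (21.3 against 94.8) were lower there. Dlx3, a homeobox factor of hair differentiation, was at 217.8 against 10.8 CPM. All 13 cells come from 1 sort, so this compares cells of that sort.

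LOS showed the same order for the scarce factors, with 44.8 and 11.1 CPM of Grhl1, 22.7 and 3.16 of Ovol1 and 38.01 and 11.1 of Zfp750 in its 16 cells with and 23 cells without inner root sheath genes. All 59 Grhl3 counts of LOS lay in the 16 cells. Klf4 (13.4 and 0.903 CPM) and Klf5 (12.25 and 0.903) were also higher in them, with only 4 counts each in the rest, and Gata3 was at 60.4 and 42 CPM. Trp63 ran the other way, at 95.7 CPM with and 192.4 without. The 23 cells were shallower, with a median of 48480 counts against 209551. The part of depth in these values was not tested.

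The CatVI plates differed from this. The 7 inner root sheath genes of the split summed to 2.55 CPM on plate 1 and 2.65 on plate 2, with no cell at the limit. A wider list of inner root sheath and companion layer genes went both ways. Of its 16 genes with enough counts, 9 were at least 2-fold lower on the summed plates 1 and 2 than in UOS and 3 higher. The higher ones were Cux1, Foxn1 and Krt6a, at log2 ratios of 1.98, 1.43 and 1.20. Grhl1 was at 52.1 and 22.96 CPM on plates 1 and 2, and Zfp750 at 29.4 and 10.2. On plate 6, the cells under the limit held 25.85 CPM of Grhl1 and 59.9 of Zfp750. On plate 5, inner root sheath genes summed to 0.890 CPM, all of it Tchh. Krt71, Krt72, Krt73, Krt25, Krt27 and Krt28 were at 0 there, yet plate 5 held 49.4 CPM of Grhl1 and 62.1 CPM of Zfp750. Of the ORS keratins on plate 5, Krt5 stood at 2133 CPM, Krt14 at 3317, Krt17 at 663 and Krt6a at 581. Of the 12 spinous layer genes, Dsg1a, a desmosomal cadherin, and Sbsn, a secreted suprabasal protein, were at 169.5 and 144.6 CPM there and at 13.3 to 89.7 and 8.21 to 77.7 CPM elsewhere. The others were not high on plate 5: 7 of the 12, Krt1 and Krt77 among them, had no count there, Krt10, a keratin of the spinous layer, was at 0.445 CPM against 26.9 in UOS, Dmkn at 8.45 against 45.6 and Calml3 at 20.7 against 34.6.

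**Figure D4:**
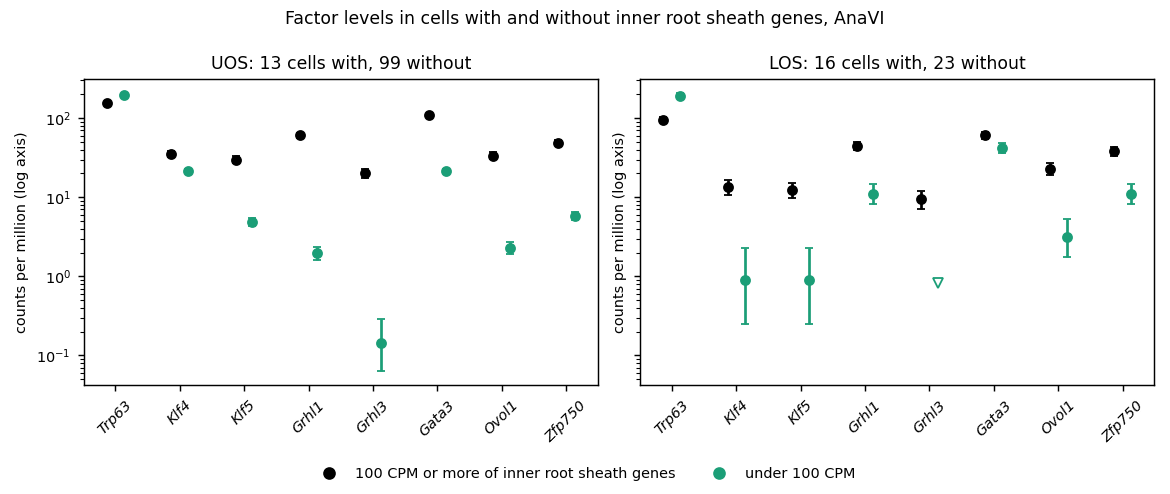
Level of each factor in UOS and LOS cells with and without at least 100 CPM of inner root sheath genes, in CPM on a log axis with exact 95% Poisson limits for counting error; the open downward triangle is the upper limit for Grhl3 in LOS cells without them, which had 0 counts. Grhl1, Grhl3, Ovol1 and Zfp750 lie higher in the cells with these genes in both sorts, and Trp63 lies lower.

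Groups were then compared as log2 ratios of CPM, with exact binomial limits at 95%. A feature counts as changed when it lay at least 2-fold apart and had at least 100 counts over both groups, and a group with 0 counts was set to 3. Against UOS, LOS had 1 member higher and 1 lower, where 14.1% of 11473 features were higher and 14.3% lower, so that the members' count was near the background. Grhl1 was higher by 1.21 (1.02 to 1.39) and Klf4 lower, at -1.55 (-1.88 to -1.24). Zfp750 (0.92) and Ovol1 (0.80) stayed under 2-fold. The median over the 8 members was 0.46, beside 0.04 over all features. Without cells of inner root sheath genes, Grhl1 stood at 2.50, Klf4 at -4.57 and Klf5 at -2.42. Klf4 and Klf5 then rested on 4 LOS counts each. Trp63 moved from -0.48 to -0.05, and Gata3, Ovol1 and Zfp750 stayed under 2-fold.

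MOS, the other sort of the same region and stage, had 5 of the 8 members lower than UOS and none higher. Over 11114 features 23.2% were lower and 6.56% higher, with a median of -0.31, against -1.70 for the members. Zfp750 was at -3.92 (-5.14 to -2.94) with 8 counts in MOS, Ovol1 at -3.00 (-4.13 to -2.06) with 9, Klf4 at -1.85 (-2.26 to -1.47) and Grhl1 at -1.55 (-2.05 to -1.09), and Grhl3 was at least 11.4-fold lower. For Grhl1 this rested on how cells were weighed: it was -0.24 as a mean over cells, -0.05 with cells thinned to 50000 counts and 1.14 when cells with inner root sheath genes were left out. Zfp750 was at -0.48 on thinned cells. Without cells of inner root sheath genes Zfp750 was at -4.61, on 2 counts in 1 of 34 MOS cells, and Ovol1 at -1.10. Inner root sheath and companion layer genes themselves had 12 of 16 members lower in MOS.

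The summed PhagoHFSC alive plates had 1 member higher than UOS and 1 lower, where 14.9% of 11281 features were higher and 28.3% lower, near the background again. Grhl1 stood at 1.70 (1.52 to 1.89), or 0.78 when plate 1 was left out, and Klf4 at -1.41 (-1.78 to -1.07). Without the cells of inner root sheath genes, 5 members were at least 2-fold higher on these plates, namely Grhl1 (4.48), Ovol1 (2.41), Zfp750 (2.03), Gata3 (1.55) and Klf5 (1.18), and Klf4 was lower (-1.25). Grhl3 then stood at 3.83, but on 16 counts against 8, under the minimum of 100. Without plate 2, 5 members lay at least 2-fold from UOS.

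OSalive had 2 members higher than UOS and 3 lower, while 11.5% of 14159 features were higher and 26.6% lower. Klf4 was at 1.47, with CPM limits of 65.9 to 67.8 against 22.9 to 25.3, and Klf5 at 1.55 (1.44 to 1.67). Both stayed at least 2-fold higher under each change of scaling, cell weight, depth and filters tried, from 1.46 to 1.96 and from 1.54 to 2.04, and stood at 1.64 and 2.55 without cells of inner root sheath genes. Of 17 dissociation and immediate early genes, 5 were 2-fold higher in OSalive and 4 lower, with a median of 0.48. Nr4a1 (1.75) and Hspa1b (1.24) were among the higher, and their part in the Klf4 and Klf5 values was not tested. Ovol1 was at -3.37 (-3.59 to -3.14), Grhl3 at -3.29 (-3.62 to -2.98) and Zfp750 at -2.42 (-2.56 to -2.28). The lower values moved as well when those cells were left out: without them Ovol1 stood at -1.50, Zfp750 at -1.23 and Grhl3 at 1.10, and Grhl1 moved from -0.49 to 2.27. Grhl3 was at -0.69 as a mean over cells, and Zfp750 at -0.37 on thinned cells. The median of all features was -0.32, and relative to it Klf4 and Klf5 stood at 1.80 and 1.88.

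**Figure D5:**
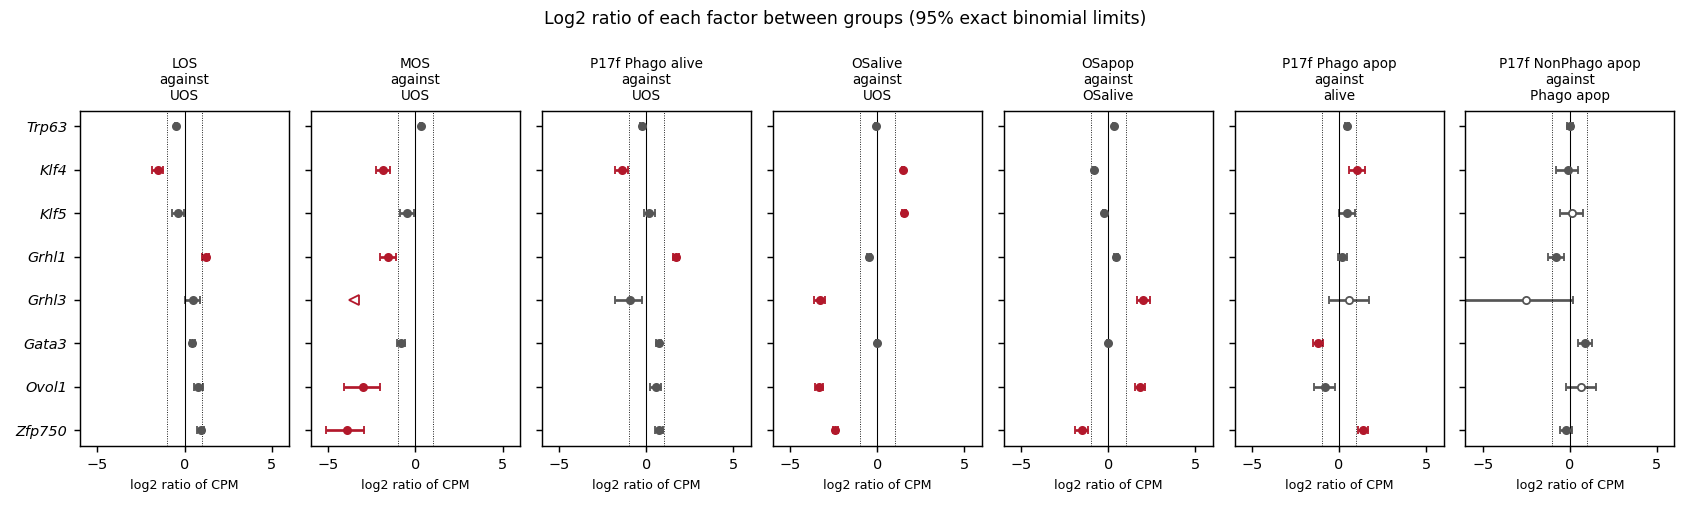
Log2 ratio of each factor in the 7 comparisons, with exact 95% binomial limits for counting error; red points lie at least 2-fold apart with at least 100 counts, grey points do not, open circles have under 100 counts, the open triangle is the bound for Grhl3 in MOS and dotted lines mark 2-fold. Klf4 and Klf5 are red and higher in OSalive, and 5 of 8 factors are red and lower in MOS. The lower limit of Grhl3 between the apop plates, at -7.92, runs off the axis.

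Cells sorted as apoptotic were compared with alive ones at both catagen stages. At CatVII, OSapop had 2 members higher than OSalive and 1 lower, where 10.6% of 13886 features were higher and 11.3% lower. Grhl3 was at 2.02 (1.65 to 2.40), Ovol1 at 1.83 (1.56 to 2.11) and Zfp750 at -1.51 (-1.89 to -1.15). These rest on few cells: Grhl3 had a count in 5 cells of each sort, 63.6% of its OSapop counts came from 1 cell, and Ovol1 was in 8 and 6 cells. Ovol1 stood at 0.35 on thinned cells and Zfp750 at -0.66 as a mean over cells. Klf4 was at -0.81 (-0.87 to -0.76), from 66.9 to 38.1 CPM, and the immediate early genes Jun (-0.71), Egr1 (-0.66), Fos (-0.83) and Dusp1 (-1.16), which respond to stress and dissociation, stood lower beside it, as did the median of all 17 such genes (-0.71). Their part in the Klf4 value was not tested.

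At CatVI, plate 5 had 2 members higher than the PhagoHFSC alive plates and 1 lower among the 7 members with enough counts, where 10.8% of 5260 features were higher and 22% lower. Zfp750 was at 1.39 (1.11 to 1.66), Klf4 at 1.03 (0.55 to 1.51) and Gata3 at -1.21 (-1.51 to -0.93). Klf4 fell under 2-fold at 0.74 without plate 1 and 0.77 as a mean over cells, and Gata3 turned to 0.28 without plate 1. Zfp750 stayed between 1.08 and 2.61 under each change of scaling, weight, depth, filter and plate tried, and both apop plates (62.1 and 53.8 CPM) lay above both alive plates (29.4 and 10.2). Trp63, Klf4 and Klf5 also had higher CPM on both apop plates than on either alive plate, with Trp63 (0.47) and Klf5 (0.46) under 2-fold. For each of these genes, the counting limits of the nearest apop and alive plates overlapped. Krt14 and Krt5 were at 2.09 and 1.17 on plate 5 against the alive plates, and Krt15 at -0.75. Of 20 basal keratinocyte genes, 5 were 2-fold higher there and 6 lower.

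Between the apop plates, NonPhagoHFSC against PhagoHFSC, 0 of the 5 members with enough counts lay 2-fold apart, where 7.65% of 2838 features were higher and 22.9% lower. Trp63 was at 220.1 and 220.5 CPM, with a log2 ratio between -0.17 and 0.17. Zfp750 stood at -0.21 (-0.55 to 0.13), Grhl1 at -0.78 (-1.24 to -0.34), Gata3 at 0.87 (0.46 to 1.27) and Klf4 at -0.13 (-0.78 to 0.48). Klf5, Grhl3 and Ovol1 had under 100 counts over both plates.

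A list of 25 other epidermal transcription factors gives the setting. Of those with enough counts, 3 were 2-fold higher and 4 lower of 23 in LOS, 3 and 5 of 23 in MOS, none and 6 of 23 on the PhagoHFSC alive plates, and 2 and 5 of 24 in OSalive, each against UOS. In OSapop against OSalive 1 was higher and 2 lower of 24. On plate 5 against the alive plates 3 were higher and 2 lower of 12, and between the apop plates none was higher and 3 lower of 11. Casz1, Vdr and Tfap2b, among those with the most counts, kept within 2-fold of UOS in both MOS and OSalive. Casz1, a zinc finger factor, was at 279.9 CPM on plate 5, 202.7 on plate 6 and 96.8 to 203.9 CPM elsewhere. Grhl2, the third grainyhead-like factor, ranged from 23.2 CPM in LOS to 66.5 on plate 5, and Ovol2 stayed at or under 2.56 CPM in every group.

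Among the widest folds of that list, Prdm1, a repressor known from sebaceous and inner root sheath cells, was at 3.02 in LOS against UOS, from 2.21 to 17.9 CPM. Hopx, a homeodomain-only protein found in follicle stem cells, was at -4.01 in MOS and -3.38 on the PhagoHFSC alive plates. Ehf, an ETS factor of differentiating epithelia, was at 2.93 in OSalive, but from 0.102 to 0.779 CPM. Hes1, a target of Notch signalling, was at 3.56 on plate 5 against the alive plates, where it stood at 21.4 CPM, and at -2.49 on plate 6 against plate 5.

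Differentiation genes downstream of such factors were read beside them, in lists by layer. Spinous layer genes were 2-fold lower than UOS in 9 of 9 with enough counts in LOS, 7 of 9 in MOS, 7 of 9 on the PhagoHFSC alive plates and 7 of 10 in OSalive. In OSalive 1 was 2-fold higher, the calmodulin-like Calml3, at 130.1 CPM against 34.6. Granular and cornified layer genes went both ways, with 6 lower and 2 higher of 11, 5 and 1 of 10, 5 and 3 of 11, and 6 and 2 of 13, in the same order. In LOS, Ppl, which codes for periplakin, was lower at 33.9 CPM against 73.4 in UOS. Ivl, which codes for involucrin, was higher at 51.7 against 0.819, as was the transglutaminase gene Tgm3 at 35.8 against 4.89. Basal keratinocyte genes had 10 of 20 lower in LOS, 1 of 20 in MOS (with 1 higher), 7 of 20 on the PhagoHFSC alive plates and 2 of 20 in OSalive. OSapop and OSalive differed at 2-fold in 0 of 20 basal genes.

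Over the 9 groups, the genes whose log2(CPM + 1) ran most like that of a member were searched among 7156 candidates, and all values are descriptions over 9 points that share libraries and depth. Klf4 and Klf5 had Serpinb8 as their nearest gene (Pearson r of 0.89 and 0.95), and with each other r was 0.88. Grhl1 and Zfp750 had an r of 0.87, Ovol1 and Zfp750 0.75, Grhl1 and Ovol1 0.74, and Grhl3 and Ovol1 0.71. Trp63 ran most like Lpar1 (0.98), Lman1 (0.97) and Arfgap2 (0.96). Grhl1 ran most like Sipa1l1 (0.97), Ascc3 (0.97) and Sf3b1 (0.96), and Grhl3 most like Pbdc1 (0.93), Usp14 (0.90) and Ttyh2 (0.89). Gata3 ran most like Hars2 (0.98), Ctns (0.97) and Taf6l (0.96), and Ovol1 most like Pnn (0.94), Fubp1 (0.93) and Exosc5 (0.92). Zfp750 ran most like Nae1 (0.98), Cdkn1a (0.94) and Mgat5 (0.93), the last at 94.3 CPM on plate 5 and 1.99 in MOS. Klf4 further had Rev3l (0.88) and Kcnc4 (0.88), and Klf5 had Rpsa-ps10 (0.88), a processed pseudogene whose reads can be shared with its parent gene.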

How the data were processed

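The authors aligned Smart-seq2 reads to mm39 and quantified them per gene, and per the labels their processing notes name STAR 2.6, Salmon 1.4.0, R 3.6.1 and Scanpy. The deposited table holds estimated counts per gene and cell without normalization, with spike-ins, which were kept apart. These estimated counts were rounded to whole numbers. Symbols, positions and lengths came from GENCODE on GRCm39, which held 93.3% of the identifiers. The 463 cells of known group with at least 2000 detected genes were summed per sort or plate and scaled to CPM over all gene identifiers. Groups held between 1840012 and 287377663 counts. A cell whose labels give conflicting stages was put in no group, and 1 cell has no column of counts. No doublet caller was run, since wells holding several cells had been removed by qPCR per the labels. Some well labels (161) name a pair of samples, and for 100 of them both cells passed and were kept as separate cells.

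Every sort or plate is 1 sample, so no test across samples was made. CPM have exact Poisson limits, log2 ratios limits from the exact binomial split and shares exact Clopper-Pearson limits, all at 95% and for counting error only. Counts of changed features took only those with at least 100 counts in the groups compared. Named are the 8 members, up to 4 genes of each list with the most counts, up to 3 with the widest fold among the changed, and the 3 genes most like each member, from genes seen in 75 or more cells and reaching 10 CPM in some group. Other genes beside the inner root sheath split, and some of the layer and immediate early genes, were named after their values were seen. A gene that this rule names is not reported here. The members and lists were chosen with earlier results of these data known. Alternatives concerned scaling (median of ratios, and TMM of edgeR 4.0.16 in R 4.3.3), weight per cell, thinning, the filters, the fold, the leading cell, plates, and, added after the data had been seen, cells with genes of other types. Ratios were checked on simulated counts. Python 3.11.15, numpy 2.4.6, pandas 2.3.3, scipy 1.17.1 and matplotlib 3.10.9 were used.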

Additional observations from a re-analysis of the deposited data

Results flagged for a closer look

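The apoptotic against alive contrast ran in opposite directions at the 2 catagen stages for 3 members, beyond the counting limits of each stage. For Klf4 the log2 ratio was 1.03 on plate 5 against plates 1 and 2 at CatVI and -0.81 in OSapop against OSalive at CatVII, a gap of 1.84. For Zfp750 it was 1.39 and -1.51, a gap of 2.90. For Ovol1 it was -0.83 and 1.83, a gap of -2.66. Some of these values shrank under other settings. At CatVII, Ovol1 was at 0.35 on thinned cells and Zfp750 at -0.66 as a mean over cells. Klf4 at CatVI was at 0.74 without plate 1. The difference was not tested, since each arm is 1 to 2 sorts or plates, and plates 1 and 2 alone lay 1.35-fold, 2.89-fold and 1.92-fold apart for these genes.

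The passing cell whose labels give conflicting stages, which enters no comparison, had 9 Trp63 counts of 52544, or 171.3 CPM, above the 57.1 CPM that a count of 0 allows. Its Klf5 level rested on 2 counts, and the other 6 members had none.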

How the results depend on the processing

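The number of members at least 2-fold apart moved by more than 1.5 times as follows. For LOS against UOS it was 2, and 5 as a mean over cells, 5 on cells thinned to 50000 counts, 4 at a fold of 1.5 and 5 without cells at 300 CPM of other cell types' genes. For MOS it was 5, and 2 on thinned cells. For the PhagoHFSC alive plates it was 2, and 5 as a mean over cells, 6 on thinned cells, 5 at a fold of 1.5, 5 without plate 2, 6 without cells of inner root sheath genes and 4 without other cell types. For plate 5 against the alive plates it was 3, and 1 as a mean over cells. Between the apop plates it was 0, and 1 on thinned cells, 1 with no minimum on counts, 2 at a fold of 1.5 and 1 without the leading cell of each member. For these counts 79 other values stayed within 1.5 times. Of the members' own values, 404 moved within counting limits, 3 changed sign past a called value, and the others moved beyond those limits. The sign changed for Grhl1 in MOS (1.14) and Grhl3 in OSalive (1.10), both against UOS and without cells of inner root sheath genes, and Gata3 on plate 5 (0.28) without plate 1. The cause was not tested. Of 72 shares of cells, 46 thinned to 20000 counts stayed within the limits of those at 50000. No paired analysis was possible because each group is 1 sample and numbers only name cells. Depth limits Grhl3 and Ovol1 most, with 601 and 1332 counts in all. Plates 3 and 4 held 28660 counts in all, where a count of 0 allows up to 104.7 CPM, so no level can be given for them.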
